A study of Mus musculus with 4 samples.

Results

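Genes of the interferon-stimulated antiviral programme were followed in the transcriptome of muscle stem cells, the Pax7-expressing precursors that lie beside adult muscle fibres. A list of 47 gene symbols was matched to the 11603 rows of the expression table, and 41 of them were found. Ifit3b, Ifi44, Oas1g, Oas2, Oas3 and Mx1 are not analysed here. By role the 41 genes were 7 sensors and adaptors, 2 receptor chains, 5 transcription factors, 2 regulators of the response and 25 effectors. All libraries came from male C57BL/6 mice aged 4 to 5 months. Hindlimb cells had been sorted for VCAM1 and against 3 surface antigens, CD31, CD45 and Sca1. There were 2 control libraries and 2 libraries labelled conditional Hairless knockout. For either group, the Cre line, the allele and any inducing agent are not stated. The comparison asks how transcript levels differ when Hairless (Hr), which encodes a nuclear corepressor, is targeted. Values are RPKM, reads per kilobase of exon scaled to the library size used by the authors. Each set of 4 values is given in the order control 1, control 2, knockout 1, knockout 2. The labels do not tie the libraries to individual animals. The p-values therefore reflect the spread among these 4 libraries alone, and that spread may be technical.

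Cells detect viral RNA with the helicases encoded by Ifih1 (MDA5) and Ddx58 (RIG-I), which signal through Mavs, and cytosolic DNA through Tmem173 (STING). These routes activate IRF3 and IRF7, which switch on type I interferon genes. Interferon binds the receptor chains IFNAR1 and IFNAR2, and a complex that contains STAT2 and IRF9 then binds interferon-stimulated response elements (ISREs) in promoters of effector genes.

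Promoter letters of 6 genes are shown first, to set genes that behaved differently in the knockout libraries side by side. RefSeq promoter windows (GRCm38.p6), from 250 bases before to 50 bases after each start, were matched by gene ID for 31 of the 41 genes. An ISRE core, searched on both strands as GAAA, any 2 bases and GAAA, was in a window of 14 of these 31 genes (45.2%), against 330 of 9271 genes on the table with a window (3.56%). The core TTCNNNGAA, the letters of a gamma-activated site (GAS), reads the same on both strands. It was in a window of 11 of 31 genes (35.5%) against 741 of 9271 (7.99%). Cores of one kind could overlap each other and could share bases with the other kind. A match is a description of letters and not a binding site. The stretches below end at the RefSeq start, or at the edge of the deposited gene model where that lies further upstream. They are written 5′ to 3′ in the direction of the gene, with ISRE cores in capitals. Isg15, Bst2, Ifit3 and Irf7 were above both controls in both knockout libraries, and Ifit1 and Rsad2 in knockout 1 only. Ifit3 is counted with the first group by a narrow margin. It had 3.52 RPKM in knockout 2 against 3.16 in control 1, and 8.97 in knockout 1.
Isg15 (overlapping cores, chr4:156200819-156200978, minus strand): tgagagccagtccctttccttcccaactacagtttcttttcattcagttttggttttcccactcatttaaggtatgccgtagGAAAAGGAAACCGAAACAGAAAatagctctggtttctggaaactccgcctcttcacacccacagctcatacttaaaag
Bst2 (overlapping cores, chr8:71537473-71537632, minus strand): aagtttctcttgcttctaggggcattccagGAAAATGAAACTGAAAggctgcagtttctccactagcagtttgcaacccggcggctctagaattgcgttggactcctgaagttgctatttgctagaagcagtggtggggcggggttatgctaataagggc
Ifit3 (cores on the opposite strand, chr19:34583369-34583528, plus strand): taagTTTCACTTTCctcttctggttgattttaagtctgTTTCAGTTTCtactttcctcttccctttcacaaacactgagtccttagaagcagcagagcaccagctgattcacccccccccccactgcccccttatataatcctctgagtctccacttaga
Ifit1 (cores on the opposite strand, chr19:34640729-34640870, plus strand): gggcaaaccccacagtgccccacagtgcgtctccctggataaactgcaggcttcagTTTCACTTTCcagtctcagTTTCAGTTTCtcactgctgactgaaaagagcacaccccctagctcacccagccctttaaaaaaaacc
Rsad2 (a core on the opposite strand, chr12:26456453-26456612, minus strand): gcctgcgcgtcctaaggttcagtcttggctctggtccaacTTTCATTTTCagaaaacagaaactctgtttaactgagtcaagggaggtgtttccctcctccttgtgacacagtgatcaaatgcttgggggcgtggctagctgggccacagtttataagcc
Irf7 (no core, chr7:141266482-141266584, minus strand): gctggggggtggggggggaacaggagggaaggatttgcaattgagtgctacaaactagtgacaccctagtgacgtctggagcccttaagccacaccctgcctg

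The Isg15 cores began at positions -78, -72 and -66 from the start and the Ifit1 cores at -104 and -85. Both genes hold ISRE letters near the start, and their values in the knockout libraries differed as described below. ISRE cores were found in 8 of the 18 genes with a window that were above control in both knockout libraries, and in 5 of the 9 that were above it in knockout 1 only.

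The libraries held 21757211 to 34101213 reads on the listed genes. The targeted gene Hr had 9.28, 8.94, 7.15 and 7.90 RPKM, which did not pass limma (adjusted p = 0.431), so Hr does not check the labels and directions rest on them. Pax7, which defines muscle stem cells, had 8.23, 12.9, 9.03 and 13.1 RPKM. Vcam1, whose product was sorted for, had 145, 108, 155 and 101 RPKM, with overlapping groups. Of 9 muscle stem cell genes, 3 had both knockout values above control and 1 below (25% and 26.2% of all genes). By the adjusted p in the authors' deposited table, Sdc4 was higher (adjusted p = 0.00280) and Itga7 lower (adjusted p = 0.00849). Their log2 fold changes in the limma fit were 0.78 and -0.89. Limma with adjustment called 0 of the 9. Of the antigens sorted against, Ptprc (CD45) lay between 0.00471 and 0.0399 RPKM and Pecam1 (CD31) between 5.51 and 11.9 RPKM. Ly6a (Sca1), itself interferon-inducible, had 47.9, 49.5, 77.4 and 80.7 RPKM, with both knockout values above control.

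Across the 41 interferon genes, levels were mostly higher in the knockout libraries. Both knockout values lay above both control values in 26 genes, where 25% of all genes did, and below both in 3, Mavs, Ifi204 and Ifnar1, where 26.2% of all genes did. The median log2 fold change was 0.47, beside -0.01 over all 11603 genes. By limma with Benjamini-Hochberg adjustment, 0 of the 41 were called (adjusted p from 0.133 to 0.927), as 0% of all genes were called higher and 0.00862% lower. At an unadjusted limma p under 0.05, 14 were higher and 0 lower, against 10.3% and 7.69% of all genes. The limma-voom fit on reads recovered from the values also called 0 of the 41 higher and 0 lower. Over all genes it called 0.0259% higher, and it called 8 genes lower. By the adjusted p in the authors' deposited table, 7 were higher under 0.05 and 0 lower, against 3.59% and 4.26% of all genes.

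Log2 fold changes are on the log2(RPKM + 0.5) scale, which understates changes of low genes. The library size implied by the values was 85.9%, 92.4%, 75.7% and 75.5% of the reads listed in control 1, control 2, knockout 1 and knockout 2. Scaling instead to the reads listed moved the median of all genes to -0.20, that of the 41 genes to 0.24, and the 26 genes to 16, beside 11.4% of all genes. In either scaling 35 of the 41 lay above the median of all genes.

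**Figure D1:**
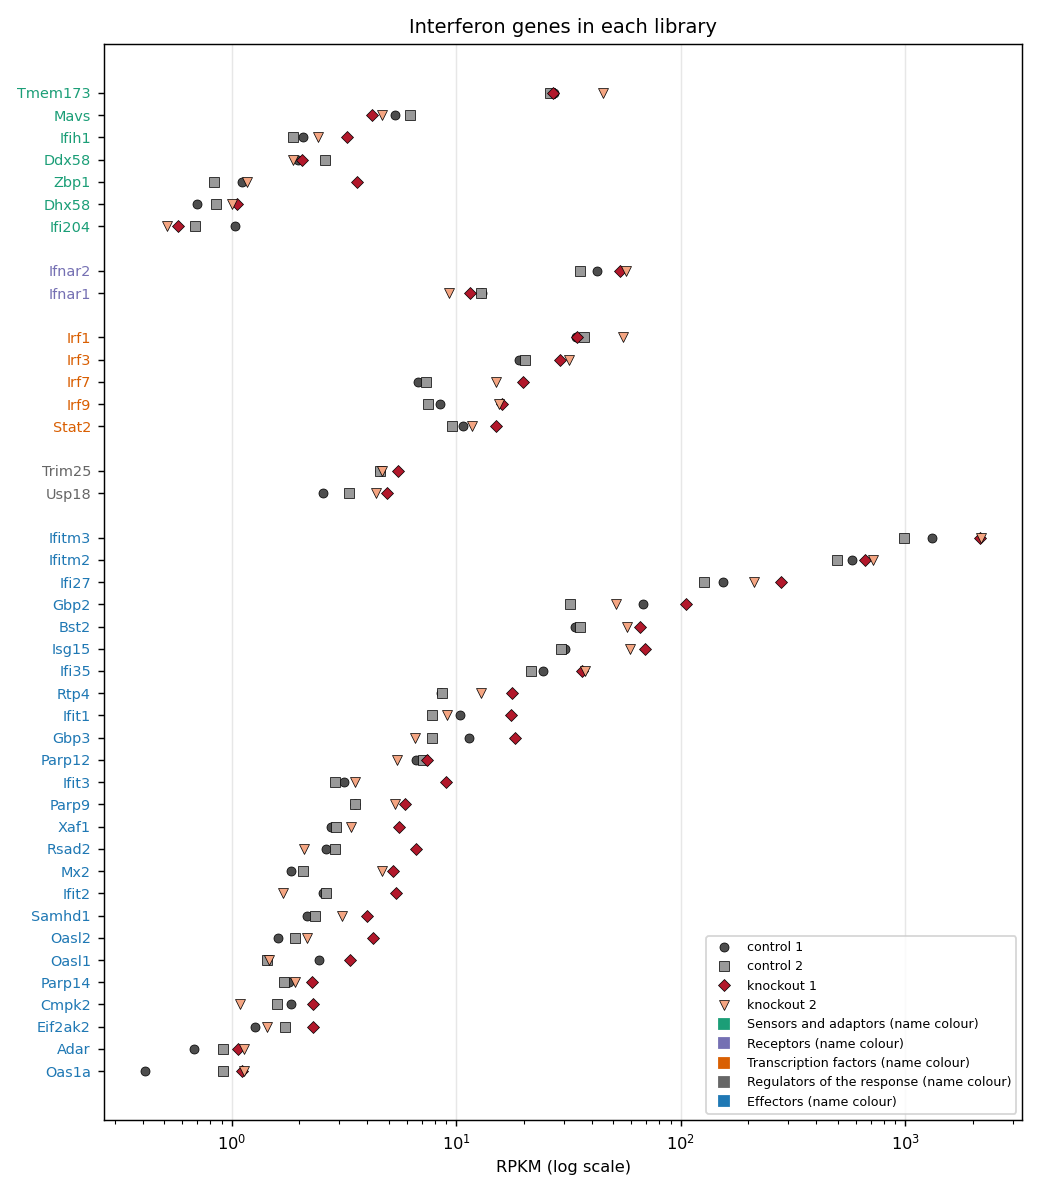
RPKM of each of the 41 interferon genes (log axis) in control 1, control 2, knockout 1 and knockout 2, grouped by role. In 26 genes both red and orange symbols lie to the right of both grey ones, and Ifitm3 is the highest in every library.

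Among the transcription factors, both knockout values exceeded both controls in 4 of 5 genes (25% of all genes), and the median log2 fold change was 0.62. At an unadjusted limma p under 0.05, 3 of the 5 were higher (10.3% of all genes). Irf7 (chromosome 7, 141262706 to 141266481, minus strand, mm10), the interferon-induced factor that amplifies the type I response, had 6.77, 7.33, 19.9 and 15.0 RPKM. The groups did not overlap, and the means were 7.05 ± 0.396 and 17.4 ± 3.46 (SD, n = 2), 2.47-fold higher, with a log2 fold change of 1.24 (SE 0.19, limma adjusted p = 0.133). Irf9 (chromosome 14, 55603571 to 55610030, plus strand), which encodes the DNA-binding part of the complex with STAT2, had 8.44, 7.50, 16.0 and 15.5 RPKM. Its knockout libraries were nearly equal and 1.97-fold above control, with a log2 fold change of 0.94 (SE 0.15, limma adjusted p = 0.133). In the authors' deposited table the adjusted p was 0.0643 for Irf7 and 0.00230 for Irf9.

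Irf3, whose product is made constitutively and activated by phosphorylation, had 19.0, 20.3, 29.1 and 31.6 RPKM. The groups did not overlap, and the knockout mean was 1.55-fold higher (limma adjusted p = 0.172, and 0.0150 in the authors' deposited table). Stat2 had 10.7, 9.52, 15.1 and 11.8 RPKM, with knockout 2 only slightly above control 1 (limma adjusted p = 0.333). Irf1, an early interferon and cytokine response factor, had 33.9, 36.9, 34.3 and 55.3 RPKM and was high in knockout 2 alone (limma adjusted p = 0.562). Without knockout 2 its log2 fold change was -0.044. Its RefSeq window held a GAS core at position -90 and no ISRE core.

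The receptor chains lay on opposite sides of control. Ifnar2 had 42.1, 35.3, 53.4 and 57.2 RPKM, with both knockout values above control (log2 fold change 0.51, SE 0.15, limma adjusted p = 0.199). Ifnar1 had 12.9, 12.8, 11.5 and 9.30 RPKM, with both knockout values below control (log2 fold change -0.30, SE 0.17, limma adjusted p = 0.398). The difference between the chains was not tested.

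Sensors and adaptors had no common direction. Of the 7 genes, both knockout values were above control in 3, Ifih1, Dhx58 and Zbp1 (25% of all genes). They were below it in 2, Mavs and Ifi204 (26.2% of all genes). At an unadjusted limma p under 0.05, 0 were higher and 0 lower (10.3% and 7.69% of all genes). Limma adjusted p values ran from 0.326 to 0.652. Tmem173 (STING), the most abundant of them, had 27.1, 26.1, 27.0 and 45.0 RPKM and was high in knockout 2 alone. Mavs, the mitochondrial adaptor of the RNA helicases, had 5.34, 6.22, 4.23 and 4.66 RPKM. Both knockout values were below both controls, with a log2 fold change of -0.34 (SE 0.17, limma adjusted p = 0.365). Zbp1, a sensor of Z-form nucleic acids, had 1.11, 0.828, 3.60 and 1.17 RPKM, from 91, 61, 328 and 68 reads. Knockout 1 stood apart, and knockout 2 was just above control 1. The RNA sensors Ifih1 and Ddx58 had 2.08, 1.87, 3.26 and 2.42 RPKM and 1.98, 2.60, 2.04 and 1.87 RPKM, the first with separate and the second with overlapping groups. Dhx58, a helicase gene without signalling domains, and Ifi204, a DNA sensor gene, lay between 0.513 and 1.05 RPKM.

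Both regulators were above control in both knockout libraries, where 25% of all genes were. Usp18, the protease that removes ISG15 from proteins and dampens receptor signalling, had 2.56, 3.33, 4.92 and 4.37 RPKM (log2 fold change 0.59, SE 0.19, limma adjusted p = 0.225). Trim25, the ubiquitin ligase that assists RIG-I, had 4.58, 4.56, 5.51 and 4.68 RPKM (limma adjusted p = 0.708). The sign of Trim25 changed on scaling to the reads listed.

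Effectors made up most of the genes. At the authors' scaling, every one of the 25 was above both controls in knockout 1, where 37.6% of all genes were. In knockout 2 it was 16 of 25, where 38.4% of all genes were. Their median log2 fold change was 0.54. At an unadjusted limma p under 0.05, 9 were higher and 0 lower (10.3% and 7.69% of all genes), and 5 were higher and 0 lower by the authors' deposited table (3.59% and 4.26%).

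Several abundant effectors were above control in both knockout libraries. Ifitm3 (chromosome 7, 141009586 to 141010770, minus strand), a restriction factor against virus entry, had 1311, 985, 2154 and 2165 RPKM. The knockout libraries were nearly equal and 1.88-fold above control, with a log2 fold change of 0.93 (SE 0.21, limma adjusted p = 0.170, and 0.0104 in the authors' deposited table). Its relative Ifitm2 had 577, 494, 660.4 and 720.0 RPKM, with both knockout values above control (log2 fold change 0.37, limma adjusted p = 0.314). Ifi27 had 154, 127, 280.0 and 212 RPKM, again without overlap (limma adjusted p = 0.177, and 0.0323 in the authors' deposited table). Bst2 (tetherin), which holds budding virions at the cell surface, had 33.8, 35.6, 65.7 and 57.5 RPKM, with both knockout values above control (log2 fold change 0.82, SE 0.14, limma adjusted p = 0.138). How reads shared by near-identical copies of the Ifitm, Ifit, Oas and Gbp families were counted is not stated, so levels of single members are uncertain.

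Isg15 (chromosome 4, 156199424 to 156200818, minus strand), the ubiquitin-like modifier whose promoter is printed above, had 30.5, 29.3, 69.0 and 59.6 RPKM. The groups did not overlap, and the knockout mean was 2.15-fold higher, with a log2 fold change of 1.09 (SE 0.14, limma adjusted p = 0.133). Mx2 (chromosome 16, 97535308 to 97560900, plus strand), a dynamin-like GTPase gene, had 1.83, 2.07, 5.22 and 4.65 RPKM, from 153, 156, 487 and 276 reads. It showed the largest ratio of group means among the 41, 2.53-fold, with a log2 fold change of 1.15 (SE 0.17, limma adjusted p = 0.133, and 0.00661 in the authors' deposited table). Ifi35 had 24.2, 21.4, 36.4 and 37.5 RPKM, without overlap (limma adjusted p = 0.154, and 0.0492 in the authors' deposited table). Parp9, an ADP-ribosyltransferase family gene, had 3.52, 3.52, 5.91 and 5.35 RPKM, also without overlap (limma adjusted p = 0.189, and 0.0349 in the authors' deposited table). Rtp4 had 8.50, 8.59, 17.6 and 12.8 RPKM, and Samhd1, which encodes an enzyme that depletes nucleotides, had 2.15, 2.35, 4.02 and 3.09 RPKM. Both were above control in each knockout library, with limma adjusted p values of 0.177 and 0.233.

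In a further set of effectors knockout 1 was high while knockout 2 lay near control. Ifit1 (chromosome 19, 34640871 to 34650009, plus strand), whose product binds the ends of viral RNA, had 10.4, 7.76, 17.5 and 9.08 RPKM. Ifit2, from the same chromosome 19 cluster, had 2.54, 2.64, 5.37 and 1.69 RPKM, and Ifit3 had 3.16, 2.88, 8.97 and 3.52 RPKM. Knockout 1 was the highest library for each gene of the cluster, and knockout 2 was the lowest for Ifit2. Rsad2 (viperin), which encodes an enzyme that makes a chain-terminating nucleotide, had 2.63, 2.88, 6.60 and 2.10 RPKM, again with knockout 2 lowest. Limma adjusted p values of these 4 genes were 0.355 to 0.834.

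The guanylate-binding protein genes Gbp2 and Gbp3, neighbours on chromosome 3, also differed between the controls. Gbp2 had 67.5, 32.2, 106 and 51.7 RPKM and Gbp3 had 11.3, 7.81, 18.3 and 6.56 RPKM. In both, knockout 1 was highest and control 1 came next, so the groups overlapped (limma adjusted p = 0.491 and 0.841). The sign of Gbp3 changed on scaling to the reads listed. Parp12, of the same family as Parp9, had 6.63, 7.06, 7.43 and 5.46 RPKM with overlapping groups (limma adjusted p = 0.834). The 11 effectors that averaged under 5 RPKM and missed both rules on p, among them Ifit2, Ifit3 and Rsad2, lay between 0.412 RPKM, for Oas1a in control 1, and 8.97 RPKM.

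Taken one at a time, the knockout libraries differed over the same 41 genes. Against the control mean, the median difference in log2(RPKM + 0.5) was 0.67 in knockout 1 and 0.24 in knockout 2, beside -0.02 and -0.0016 over all genes. Knockout 1 was above both controls in 35 genes (37.6% of all genes) and below both in 3 (40.7% of all genes). Knockout 2 was above both in 28 (38.4% of all genes) and below both in 9 (39.3% of all genes). These counts depend on the scaling. Scaled to the reads listed, knockout 1 was above both controls in 31 genes (19.4% of all genes) and knockout 2 in 20 (21.2%). By role, the medians were 0.91 and 0.24 for effectors, 0.56 and 0.67 for transcription factors, and 0.02 and 0.19 for sensors and adaptors. Effectors had the higher median in knockout 1 and transcription factors in knockout 2, and the difference between the roles was not tested.

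**Figure D2:**
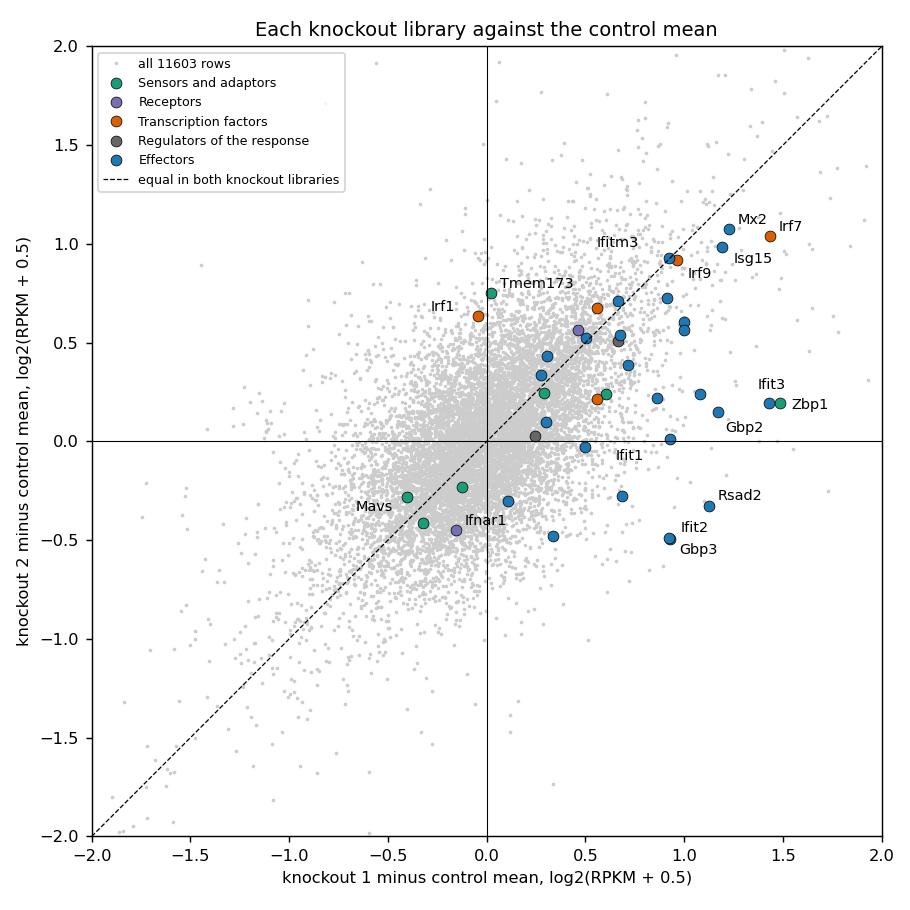
Difference of each knockout library from the control mean in log2(RPKM + 0.5), knockout 1 on the x axis and knockout 2 on the y axis, for all genes (grey, 41 of them beyond the axes) and the interferon genes (coloured by role). Irf9, Isg15, Mx2 and Ifitm3 lie near the dashed line of equal values, while Ifit2, Gbp3 and Rsad2 lie to the right and below 0.

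Knockout 1 alone exceeded both controls in 9 genes, Ifit1, Ifit2, Oasl1, Rsad2, Parp12, Gbp2, Gbp3, Cmpk2 and Eif2ak2, all of them effectors, where 12.6% of all genes did so. Knockout 2 alone did in 2, Tmem173 and Irf1 (13.4% of all genes). Knockout 1 was above knockout 2 in 31 of the 41 genes (47.6% of all genes), and control 1 above control 2 in 22 (49.2%). Knockout 1 was at least 1.5-fold knockout 2 in 12 genes, 11 of them effectors and the other Zbp1, where 6.9% of all genes were. The opposite held in 2, where 10.6% of all genes did. Control 1 was at least 1.5-fold control 2 in 3 genes (4.84%) and the reverse in 1 (7.98%).

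The ratio of knockout 1 to knockout 2 was 3.18 for Ifit2 (95% exact binomial interval 2.58 to 3.94), 3.15 for Rsad2 (2.64 to 3.78) and 3.07 for Zbp1 (2.36 to 4.05). For Gbp3 it was 2.79 (2.48 to 3.14) and for Ifit3 2.54 (2.04 to 3.20). These intervals cover counting error only, and none of the 5 reaches 1. The ratio of control 1 to control 2 was 0.963 for Ifit2, 0.914 for Rsad2 and 1.10 for Ifit3. For Zbp1 it was 1.34 (0.960 to 1.89) and for Gbp3 1.45 (1.30 to 1.62), so in Gbp3 control 1 was also the higher beyond counting error. For Irf9, Ifitm3, Ifi35 and Mx2 the ratio of the knockout libraries was 1.03 (0.966 to 1.11), 0.995 (0.979 to 1.01), 0.970 (0.897 to 1.05) and 1.12 (0.967 to 1.31). For Gbp2 the ratio was 2.05 (1.95 to 2.15) between the knockout libraries and 2.10 (1.98 to 2.22) between the controls.

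**Figure D3:**
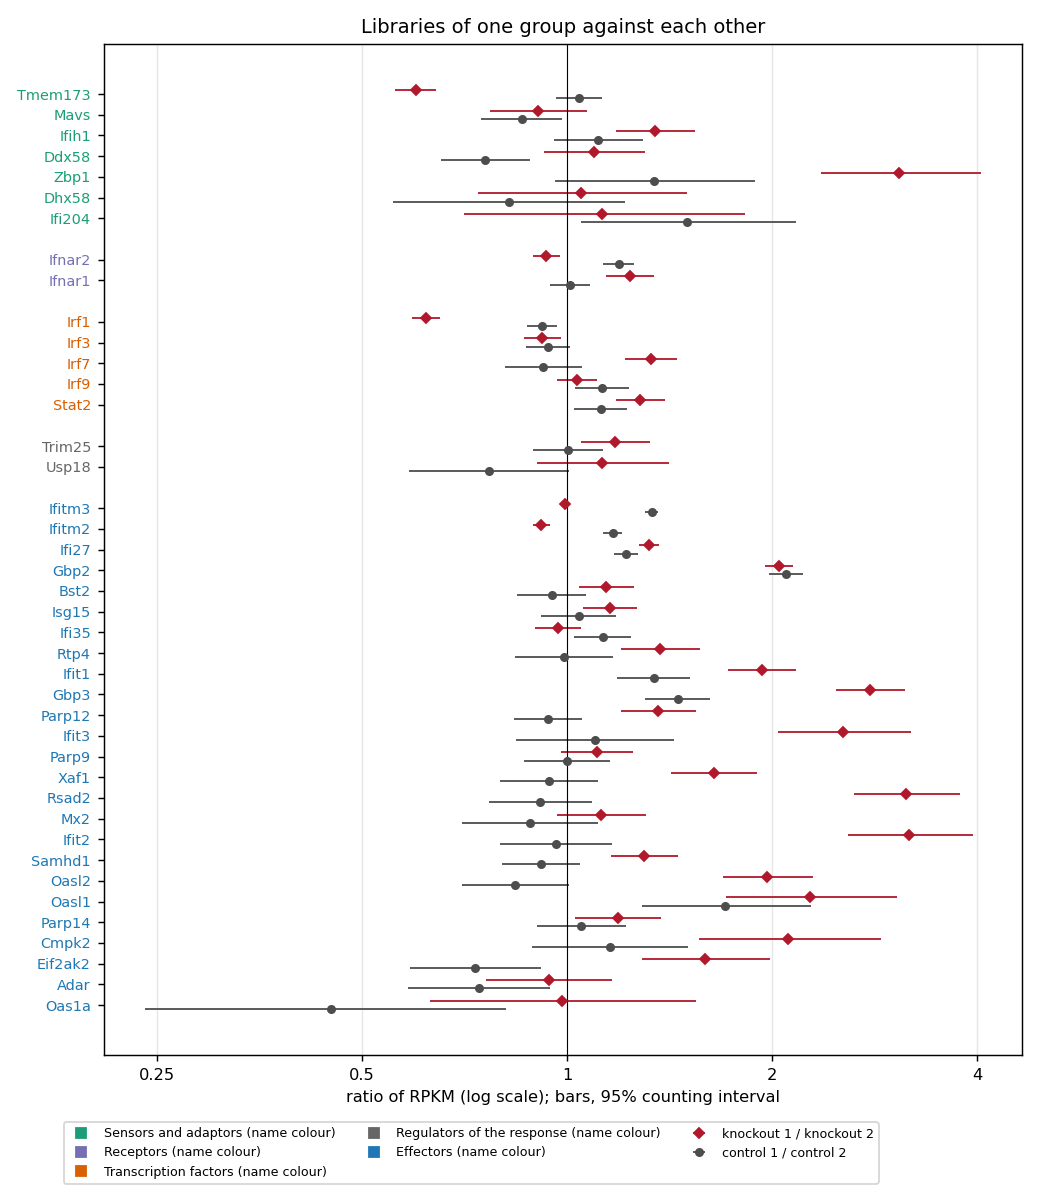
Ratio of RPKM between the libraries of a group (log axis) for each interferon gene, with 95% exact binomial intervals from recovered reads, which cover counting error only. Zbp1, Ifit2, Rsad2, Gbp3 and Ifit3 have knockout ratios between 2.54 and 3.18, while Irf9, Ifitm3 and Ifi35 lie close to 1.

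Gene length moved with the comparison over all genes, and its part in the interferon result was not tested. Genes under 1000 bases of exon had a median log2 fold change of 0.32, and 58.0% of them had both knockout values above control. In genes of 8000 bases or more it was -0.11 and 13.8%. Isg15, Bst2, Ifitm2 and Ifitm3 are under 1000 bases. Against the median of its own length class, 35 of the 41 interferon genes were higher and 6 lower, by a median of 0.46. Of the interferon genes from 2000 to under 4000 bases, 6 of 17 had both knockout values above control, near the 27.7% of all genes of that class. From 4000 to under 8000 bases it was 6 of 10, where 17.0% of all genes were, and from 8000 bases all 4, Ifih1, Parp14, Adar and Samhd1, where 13.8% were. The 31 interferon genes of 2000 bases or more had a median log2 fold change of 0.39.

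**Figure D4:**
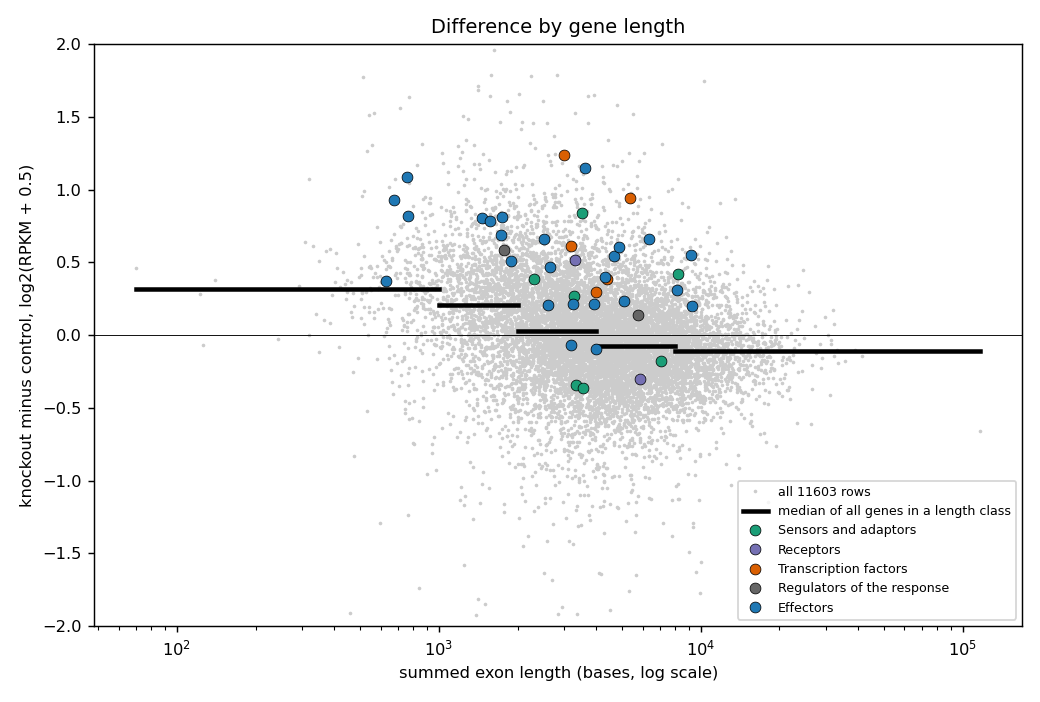
Log2 fold change of knockout over control, on log2(RPKM + 0.5), against summed exon length (log axis) for all genes (grey, 20 beyond the axis) and interferon genes (coloured by role). Black bars give the median of all genes per length class, from 0.32 in the shortest to -0.11 in the longest, and 35 of the 41 interferon genes lie above the bar of their class.

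Other genes of the pathway were read from 3 lists, of which limma with adjustment called 0 genes. Of 53 further interferon-stimulated genes measured out of 66, 12 were higher and 0 lower at an unadjusted limma p under 0.05 (10.3% and 7.69% of all genes). Both knockout values were above control in 21 and below in 5 (25% and 26.2% of all genes). In all, 4 were higher by the authors' deposited table, Herc6, Isg20, Helz2 and Gbp8, and 0 lower (3.59% and 4.26% of all genes). Of these Gbp8 was high in knockout 1 alone, with 0.0125, 0.0139, 1.001 and 0 RPKM. The list's median log2 fold change was 0.17. B2m, the light chain of class I MHC and the most abundant, had 976, 738, 1857 and 1256 RPKM. Isg20, an exonuclease gene and the one with the smallest limma p, had 35.4, 20.4, 80.8 and 85.1 RPKM. Both were above control in both knockout libraries.

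Of 16 further receptor and JAK-STAT genes measured out of 17, 9 had both knockout values above control and 2 below (25% and 26.2% of all genes). At an unadjusted limma p under 0.05, 3 were higher and 1 lower (10.3% and 7.69% of all genes). The kinase gene Jak1 had 65.8, 47.1, 70.2 and 54.5 RPKM and Tyk2 had 0.943, 1.71, 0.880 and 1.12 RPKM, with overlapping groups. Stat3, the most abundant, had 181, 137, 229 and 195 RPKM, and Irf8, with the smallest limma p, had 11.3, 9.98, 18.4 and 20.5 RPKM. Both were above control in both knockout libraries. Of 13 upstream signalling genes measured out of 17, both knockout values were above control in 2 and below in 3 (25% and 26.2% of all genes), with a median log2 fold change of -0.10. Myd88, the adaptor of Toll-like and interleukin-1 receptors, led this list in abundance and in p, with 84.6, 82.2, 120.3 and 179.9 RPKM and an adjusted p of 0.00226 in the authors' deposited table.

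Markers of other cell types were summed per library. The blood and immune list (10 of 13 genes measured) summed to 48.1, 45.8, 128 and 62.1 RPKM. Of this Cd74, the class II invariant chain that interferon-gamma also induces, gave 10.1, 14.5, 98.9 and 16.7 RPKM. Cd14 and Lyz2 reached 24.6 and 13.0 RPKM, and the macrophage gene Cd68 lay between 5.15 and 7.18 RPKM in the 4 libraries. The highest values of Fcer1g, Tyrobp, Csf1r and Emr1 were 1.68, 1.08, 0.294 and 0.103 RPKM, and those of Ptprc and Itgam were 0.0399 and 0.0225 RPKM. Of the plasmacytoid dendritic cell list 3 of 5 were measured, summing to 59.8, 59.5, 99.1 and 93.0 RPKM. Among them are Irf8 and Bst2, named above, and Bst2 is itself one of the interferon genes. Tcf4 had 14.7, 14.0, 15.0 and 14.9 RPKM, and Siglech and Ccr9 were not measured. Endothelial markers (8 of 8) summed to 78.1, 105, 57.0 and 98.1 RPKM and fibro-adipogenic markers (5 of 7) to 560.3, 545, 659.7 and 393 RPKM. The fibro-adipogenic genes did not move together. Dpt gave 131, 117, 323 and 124 RPKM, high in knockout 1 alone, and Col3a1 gave 294, 323, 204 and 96.1 RPKM. Both knockout values were above control in 1 of these 5, Ly6a, and below in 1, Col3a1 (25% and 26.2% of all genes). Myofibre markers (7 of 8) summed to 163, 687, 50.4 and 48.7 RPKM, highest in control 2. In 6 of these 7 both knockout values were below control (26.2% of all genes). By the authors' deposited adjusted p all 7 were lower (4.26% of all genes), and limma with adjustment called 0. Pericyte and smooth muscle markers (6 of 6) summed to 344, 497, 166 and 243 RPKM, of which Acta2 gave 321, 474, 148 and 205 RPKM. By log2 fold change Acta2 was lower and the other 5 of these 6 genes were higher (48.2% of all genes), with a median of 0.25. Schwann markers (2 of 4) summed to 11.0, 13.2, 4.32 and 10.8 RPKM. Immediate-early and stress genes (11 of 11) summed to 8134, 9463, 11571 and 15998 RPKM. In 9 of 11 both knockout values were above control, where 25% of all genes were. Knockout 1 was above knockout 2 in 0 of these 11, and in 20 of the 25 effectors (47.6% of all genes). In bulk RNA, fewer cells of a type and less RNA per cell cannot be told apart, and the part of these markers in the interferon results was not tested.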

How the data were processed

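RNA was sequenced from 2 control and 2 knockout libraries, made from 10 ng of total RNA with a SMART-Seq kit, per the labels' protocols. The submitters' processing notes name mm10 and the tools Trim Galore, STAR, Subread featureCounts and edgeR, without versions, and other settings are not stated. The authors deposited 1 table of 11603 genes with a value per library that behaves as RPKM. Multiplied by exon length, 100% of the values were whole multiples of 1 step per library (tolerance 0.01 reads), which gave recovered reads. The deposited table also holds an adjusted p-value per gene, whose model is not stated. Columns starting with Ct were taken as control and those with Fl as knockout, by number.

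All genes were fitted with limma 3.58.1 (R 4.3.3) on log2(RPKM + 0.5), using a trended variance prior, genotype as the only term, no filter, and Benjamini-Hochberg adjustment at 0.05. The design planned for counts was replaced by this fit because the table holds RPKM. The fit was run on simulated data as a check of the code. That run was not used to judge whether differences as small as those of the interferon genes can be called. Ratios between libraries use exact Clopper-Pearson intervals (95%, SciPy 1.17.1). Interferon genes were given in full if they averaged at least 5 RPKM, had an unadjusted limma p under 0.05, or passed 0.05 by the authors' deposited adjusted p. Of the other lists, Jak1, Tyk2, the most abundant gene and the one with the smallest p were named, and 1 further gene of this rule is not reported here. All others, and the promoters, were chosen after their values were seen. The members and lists were chosen with earlier results of these data known. Other pseudocounts, a filter, other scalings, limma-voom, a replicate block and leaving out each library were tried.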

Additional observations from a re-analysis of the deposited data

How the results depend on the processing

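None of the 24 interferon genes given in full passed limma as reported, and none did with another pseudocount, a filter at a mean of 1 RPKM, other scaling, limma-voom or a library left out. With the replicate number as a block, limma called 591 genes higher and 413 lower, and 11 interferon genes higher, Irf3, Irf7, Irf9, Isg15, Ifi27, Ifi35, Mx2, Rtp4, Bst2, Gbp2 and Ifitm3. Gbp2, whose groups overlap, had a limma adjusted p of 0.0267 with the block and 0.491 without it. The numbers are not stated to pair libraries, and there are only 2 pairs. Deviations of same-numbered libraries correlated at 0.394 over genes. Over all genes 0 were called higher and 1 lower as reported, limma-voom called 3 higher and 8 lower, and leaving out a library gave 0 to 1 higher and 0 lower. The median of the 41 genes was 0.24 on scaling to the reads listed and 0.24 to 0.67 with a library left out, 0.24 without knockout 1 and 0.67 without knockout 2. Gbp3 was -0.0078 on scaling to the reads listed and -0.49 to 0.92 with a library left out. With a library left out Irf1 ran from -0.044 to 0.63 and Parp12 from -0.30 to 0.11. The lone library of an arm is then assumed to vary like the others. The cause was not tested. TMM scaling, edgeR and DESeq2 were not run, because the table holds RPKM, and scaling by the median ratio was added after the data were seen. Ifi204, Oas1a and Dhx58 had 18 to 89 reads per library, which limits their precision.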

Other observations

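Some interferon-stimulated genes outside the 41, chosen after their values were seen, also stood high in knockout 1 alone, as Gbp8 did. Phf11b had 0.146, 0.162, 1.31 and 0.154 RPKM in control 1, control 2, knockout 1 and knockout 2. Igtp, an immunity-related GTPase gene, had 10.0, 10.2, 24.3 and 11.0 RPKM, and Cd274, which encodes PD-L1, had 5.22, 3.64, 9.92 and 3.45 RPKM. Gbp7, of the same family as Gbp2 and Gbp3, had 4.51, 4.41, 8.55 and 4.03 RPKM. Iigp1, another immunity-related GTPase gene, had 24.5, 25.5, 24.5 and 19.5 RPKM and was not high in knockout 1.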
